A study of Mus musculus with 8 samples.

Results

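The genes described here are 43 genes of the cell cycle, chosen by symbol from the 27998 genes of the count matrix. They were read in single CD45+ cells from mouse B16-OVA melanomas, in 8 libraries of 5' single-cell RNA sequencing. All 43 had 1 row each. The members fall into 16 genes of DNA synthesis (the S list), 26 genes of the later phases and of mitosis (the G2/M list) and Stmn1, a regulator of microtubules that was put in neither.

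Cells that divide copy their DNA in S phase, prepare in G2 and separate the chromosomes in mitosis. Genes for the copying are induced by E2F factors near the start of S phase, and genes for the separation are induced later, when the complexes that hold them silent in resting cells give way to activating ones. T cells and NK cells of a tumor are resting unless an antigen or a cytokine such as IL-2 drives them into the cycle, and the protein of Mki67 is the usual stain for cells that have left rest.

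Tumors grew in C57BL/6 mice that received no lymphodepletion. The libraries were 1 of non-treated mice at day 5 (NT), 2 of mice given untransduced OT1 cells (UT, days 5 and 12), 1 of mice given OT1 cells that secrete PD1d and IL-2v (IL2v, day 12), 1 of mice given OT1 cells that secrete PD1d and IL-33 (IL33, day 12) and 3 of mice given both kinds of engineered cells as a mix (Orth, days 5, 12 and 26). Days of mice given cells are counted from transfer, and the labels do not say from when the day of NT was counted. OT1 cells are CD8+ T cells that recognise ovalbumin, PD1d is a secreted decoy of PD-1 carried by all 3 engineered groups, IL-2v is an IL-2 variant that does not engage the high-affinity receptor chain, and IL-33 is a cytokine of the IL-1 family. Transferred and host CD8+ T cells could not be told apart here, tumors of several mice went into a library, and cells were enriched for CD8+ cells in the sort, so the numbers of cells per gate are no measure of the tumors. With 1 library per condition and day there is no replicate and no test. The intervals given are exact 95% intervals for counts or shares, or 95% intervals of a log2 ratio computed from counts. Those of a difference between shares are approximate and combine the exact bounds of both shares. All cover counting error only, and the limit for a count of 0 is set at 3 counts.

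A total of 12820 of 15700 barcodes passed the filter, with medians between 4494.5 and 7299 UMIs in a cell. The record of how the 8 libraries were joined gives them 5 codes, and the labels do not say what a code stands for. UT day 12 with Orth day 12, IL2v day 12 with IL33 day 12, and NT with Orth day 26 shared a code. At most 17 barcode sequences were found in both libraries of any pair, and at most 2 where the pair shared a code. Cells were placed in 6 gates by raw UMIs of marker genes: 4986 CD8 T, 2412 NK, 1434 myeloid, 612 CD4 T, 597 Treg and 297 type 2 cells (Il1rl1 and Gata3 without Foxp3 or Cd8 genes), and between 13.5% and 26.7% of a library's cells had no name. The gates were checked with markers that took no part in them. The summed level of 6 NK genes was 10022 to 16212 CPM (counts per 1e6 UMIs of the gate) in NK cells, 5 Treg genes gave 5122 to 7459 CPM in Treg cells, 6 type 2 genes gave 3694 to 16350 CPM in type 2 cells, and 6 T cell genes gave 2143 to 3577 CPM in CD8 T cells, in which 8 myeloid genes stayed between 7.32 and 36.6 CPM. The NK genes were also read in CD8 T cells, at 2148 to 4555 CPM, and the CD4 T gate held Treg genes at 861 to 3343 CPM and type 2 genes at 200.4 to 1902 CPM. Only 41 CD8 T cells of UT day 12 and 76 of NT were found, against 364 to 2259 in the other 6 libraries.

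The 2 lists differ in the letters of their promoters. Of the members, 35 were found in the RefSeq table of promoters (GRCm38.p6, 250 bases before to 50 bases after the start), with 15 promoters of 13 S genes and 22 promoters of 22 G2/M genes. TTTGGCGC, TTTCCCGC or TTTCGCGC, letters that E2F factors bind, stood on either strand in 7 of the 15 S promoters (46.7%) and in 1 of the 22 G2/M promoters (4.55%), against 1.84% of all 32851 promoters. TTTGAA or TTCGAA, the letters of the cell cycle homology region (CHR), stood in 17 of 22 G2/M promoters (77.3%), 2 of 15 S promoters (13.3%) and 19.2% of all. CCAAT, the letters of NF-Y, was found in 80.0%, 90.9% and 37.4% of the S, G2/M and all promoters. A match of letters is no proof of a site, and matches of E2F letters on opposite strands can overlap. Mcm6 and Mcm5 follow as S genes with E2F letters, Mki67 and Top2a as the G2/M genes counted cell by cell, and Cdk1 as the one G2/M promoter with all of them. Each is given as the 250 bases before the start, 5' to 3' on the strand of the gene, with E2F, CHR and CCAAT letters of either strand in capitals.
Mcm6 (chr1:128359706-128359955, minus strand): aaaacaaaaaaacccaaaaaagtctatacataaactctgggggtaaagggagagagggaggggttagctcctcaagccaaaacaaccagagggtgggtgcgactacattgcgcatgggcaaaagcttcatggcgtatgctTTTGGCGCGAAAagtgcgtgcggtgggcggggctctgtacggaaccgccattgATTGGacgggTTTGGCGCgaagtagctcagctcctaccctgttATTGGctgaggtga
Mcm5 (chr8:75109259-75109508, plus strand): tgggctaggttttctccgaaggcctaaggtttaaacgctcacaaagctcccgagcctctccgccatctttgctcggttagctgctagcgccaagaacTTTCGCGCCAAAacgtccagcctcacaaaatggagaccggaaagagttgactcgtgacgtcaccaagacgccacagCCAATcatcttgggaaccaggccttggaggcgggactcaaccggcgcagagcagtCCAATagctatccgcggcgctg
Mki67 (chr7:135716380-135716629, minus strand): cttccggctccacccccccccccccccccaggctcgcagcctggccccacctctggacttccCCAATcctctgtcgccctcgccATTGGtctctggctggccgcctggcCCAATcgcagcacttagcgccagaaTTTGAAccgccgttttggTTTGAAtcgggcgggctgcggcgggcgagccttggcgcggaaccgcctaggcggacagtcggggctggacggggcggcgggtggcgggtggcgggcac
Top2a (chr11:99024190-99024439, minus strand): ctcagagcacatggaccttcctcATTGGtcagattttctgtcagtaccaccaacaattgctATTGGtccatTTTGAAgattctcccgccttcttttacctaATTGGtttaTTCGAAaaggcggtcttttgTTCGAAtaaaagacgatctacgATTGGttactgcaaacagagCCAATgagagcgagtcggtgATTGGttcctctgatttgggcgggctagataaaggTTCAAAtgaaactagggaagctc
Cdk1 (chr10:69352913-69353162, minus strand): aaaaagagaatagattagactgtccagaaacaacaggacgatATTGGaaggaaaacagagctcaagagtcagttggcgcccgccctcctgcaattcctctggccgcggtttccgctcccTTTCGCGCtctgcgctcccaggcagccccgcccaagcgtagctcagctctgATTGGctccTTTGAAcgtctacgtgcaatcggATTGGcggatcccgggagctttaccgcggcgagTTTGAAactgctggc
In Mki67 the CHR letters lie 116 and 98 bases before the start, and in Cdk1 the copy nearest the start lies at 15 bases.

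In NK cells, Mki67 was found mainly in the libraries in which transferred cells secreted IL-2v, at days 5 and 12. After each cell was thinned to 2000 UMIs, so that depth is equal, Mki67 was found in 55 of 904 NK cells of Orth day 5 (6.08%, 4.62% to 7.85%), 13 of 291 of Orth day 12 (4.47%, 2.40% to 7.52%) and 17 of 464 of IL2v day 12 (3.66%, 2.15% to 5.80%). In the NK cells of NT, UT day 12, IL33 day 12 and Orth day 26 the count was 0 of 71, 0 of 51, 0 of 120 and 0 of 74, which at 3 counts allows shares of up to 4.23%, 5.88%, 2.50% and 4.05%, and in UT day 5 it was 2 of 437 (0.458%, 0.0555% to 1.64%). Without thinning the shares were 11.8%, 7.22% and 8.84% in the first 3 libraries and 0% to 2.06% in the other 5. As background, 2 of 111 mature dendritic and plasmacytoid cells held Mki67 after thinning (1.80%, 0.219% to 6.36%, at a median depth of 8241 UMIs) and 6.31% without thinning. The values of the 5 libraries are thus at or below background. The intervals of Orth day 5, Orth day 12 and IL2v day 12 lie above the background's share but overlap its interval, and that of IL2v day 12 lies within it. NK cells were deeper where Mki67 was found: their median depth was 5275 to 6848 UMIs in these 3 libraries and 4053 to 4688 UMIs in the other 5, and the part of depth beyond thinning was not tested. The order held with a stricter gate, with thinning to 1000 UMIs and without the 6% of cells with the most UMIs. It did not hold under the filter that the study used for a later experiment (400 to 3000 genes, 500 to 12000 UMIs, under 5% mitochondrial and 50% ribosomal UMIs). This filter leaves out large cells. In that experiment the study also removed cycling cells, a step that was not applied here. Cells under 2000 UMIs could not be thinned and take no part in the shares. The share was then 4.24% in Orth day 5 and 1.71% in IL2v day 12, but 0.476% in Orth day 12. The last lies below the 0.694% of UT day 5 and the 2.13% of UT day 12.

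**Figure D1:**
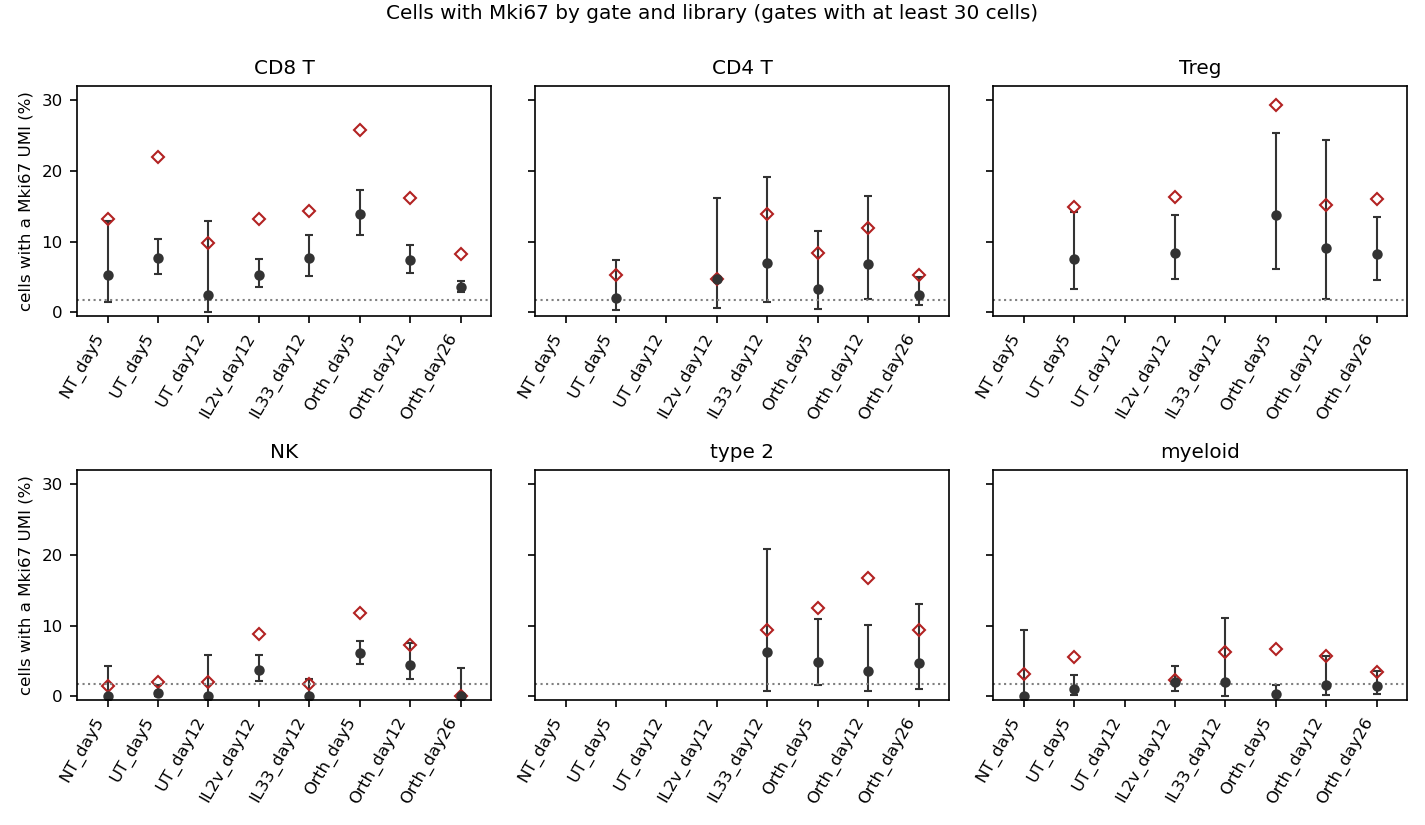
Share of cells with at least 1 Mki67 UMI (y axis, percent) in each library (x axis) for 6 gates, drawn for gates of at least 30 cells. Black points are shares after thinning each cell to 2000 UMIs with exact 95% intervals (for a count of 0, the share that 3 cells would give), red diamonds are the shares without thinning, and the dotted line is the share in mature dendritic and plasmacytoid cells (1.80%). CD8 T cells of Orth_day5 reach 13.9%, and NK cells are at 0% in 4 libraries.

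The level of the message showed the same libraries apart. Mki67 in NK cells was 81.6 CPM (74.0 to 89.6) in Orth day 5, 56.0 CPM in IL2v day 12 and 42.5 CPM in Orth day 12, against 3.20 CPM in NT, 9.17 CPM in UT day 5, 8.90 CPM in UT day 12, 3.85 CPM in IL33 day 12 and 0 UMIs in Orth day 26, which at 3 counts allows up to 8.79 CPM. Top2a, the enzyme that untangles DNA before mitosis, was at 83.1, 59.0 and 58.6 CPM in Orth day 5, IL2v day 12 and Orth day 12 and at 3.20 to 25.3 CPM in the other 5. Cells with Top2a were 6.31%, 5.60% and 6.87% of NK cells in these 3, and 2.97%, 0.833%, 1.41%, 0% and 6.76% in UT day 5, IL33 day 12, NT, UT day 12 and Orth day 26. The share of Orth day 26 is 5 of 74 cells with 5 Top2a UMIs in all (14.7 CPM) and no Mki67, and no order is read from it.

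Setting the 3 libraries with PD1d/IL-2v cells at days 5 and 12 beside the 4 without them at these days, 19 of the 26 G2/M members and 6 of the 16 S members were higher in NK cells in each of the 3 than in any of the 4. Over the 9306 genes with at least 50 UMIs in these NK cells the share was 2.56%. All members but Aurka had 50 UMIs, some mostly through the 3 libraries (Kif20a had 51 UMIs and at most 1.31 CPM in the 4), so the count is a description. The grouping was not among the planned comparisons and was not repeated under the filter of the later experiment. The later library with PD1d/IL-2v cells, Orth day 26, is not among the 3: there Mki67, Birc5, Ube2c, Cenpf and 2810417H13Rik had 0 UMIs and Ccna2 was at 2.93 CPM. Birc5, a subunit of the chromosomal passenger complex, was at 36.0 to 45.0 CPM in the 3 and 0 to 17.8 CPM in the 4, and Ube2c, the ubiquitin-conjugating enzyme of the anaphase-promoting complex, at 32.9 to 42.1 CPM and 0 to 4.37 CPM. The cyclin Ccna2 was at 13.2 to 27.1 CPM and 0 to 5.24 CPM, and Cenpf, a protein of the kinetochore, at 15.7 to 17.2 CPM and 0 to 1.31 CPM. Those that did not separate were Aurka, Ccnb1, Cks2, Bub1, Cdc20, Cenpa and Plk1, of which Cenpa, the histone of centromeres, was at 79.99 CPM or more in each of these 7 libraries.
In the S list, Tk1, which salvages thymidine, 2810417H13Rik (Pclaf, a partner of the clamp PCNA), Hist1h2ap (a replication histone), Hells, Gins2 and Mcm3 were higher in each of the 3. The margin was small for Mcm3 (32.2 CPM in the lowest of the 3 and 31.4 CPM in the highest of the 4), Gins2 (6.39 and 5.78 CPM) and Hells (20.99 and 19.26 CPM). The other subunits of the Mcm helicase (Mcm2, Mcm4, Mcm5, Mcm6 and Mcm7) overlapped, and no contrast between them and Mcm3 is read. 2810417H13Rik spanned 60.2 to 92.9 CPM in the 3 and 1.93 to 37.1 CPM in the 4, whereas Mcm6 spanned 77.0 to 100.5 CPM and 52.0 to 89.0 CPM. Stmn1 was at 124.6 to 131.1 CPM in the 3 and 19.3 to 74.7 CPM in the 4. In CD8 T cells no member of either list separated these libraries in that way, against 1.32% of 10059 genes. Finding none among so few genes is near that share.

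**Figure D2:**
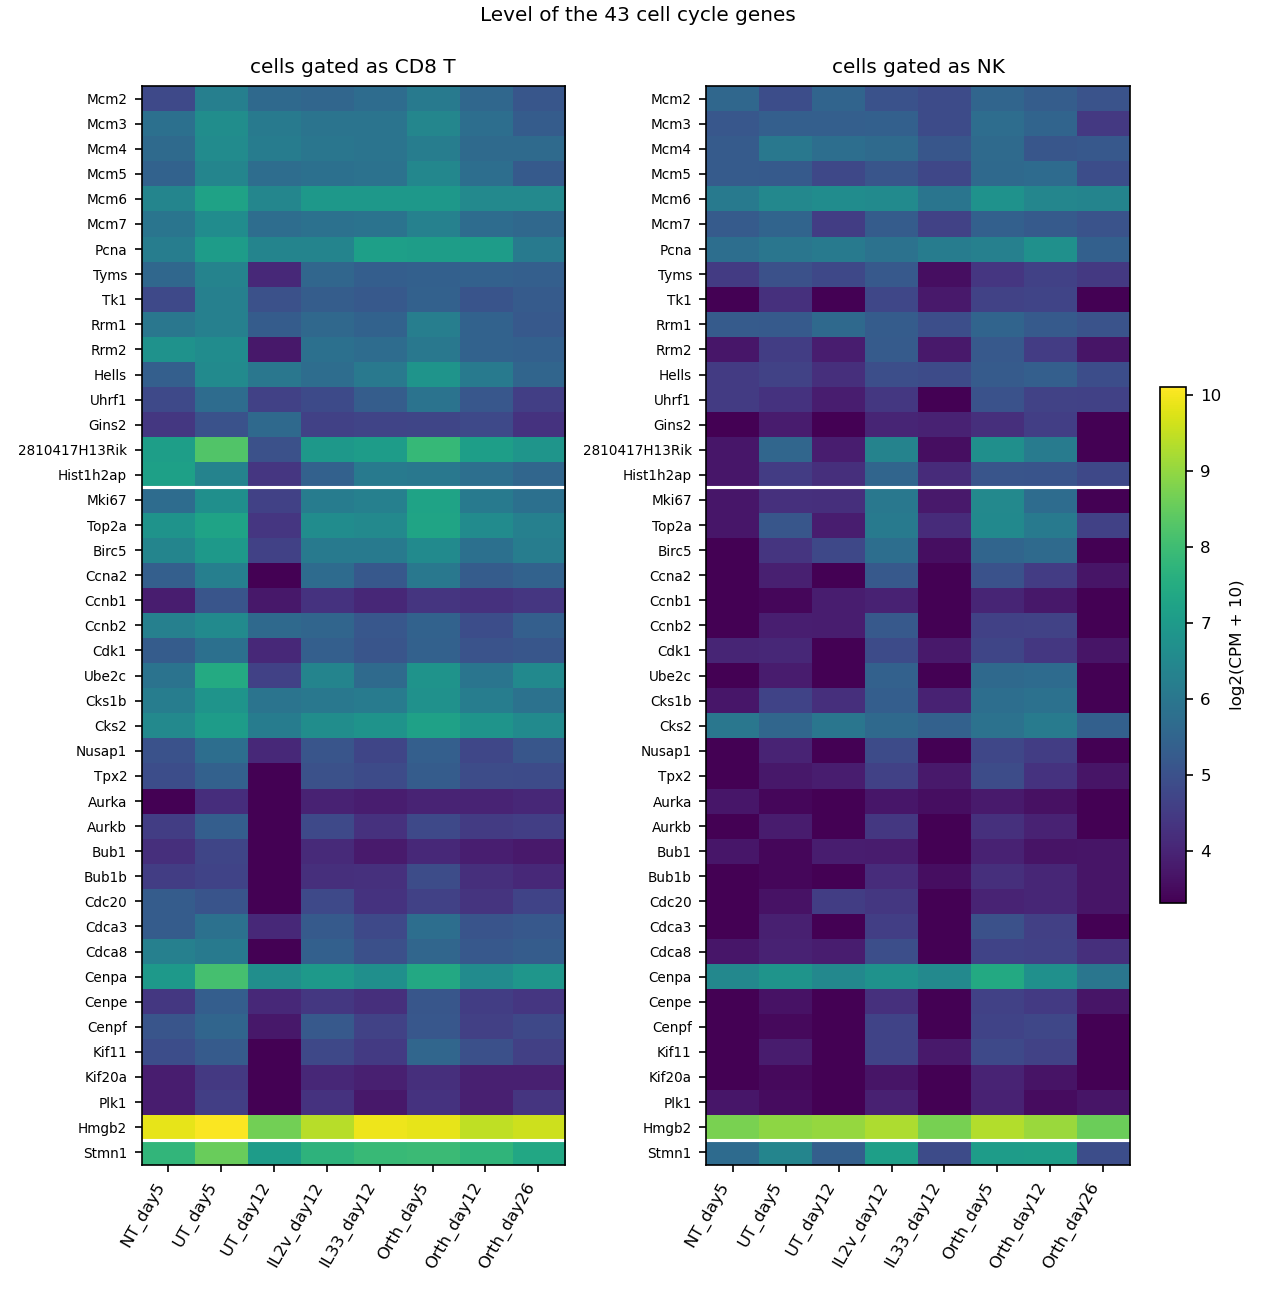
Level of the 43 genes as log2(CPM + 10) (color scale) by library (columns) in CD8 T cells (left) and NK cells (right), from 1 summed count per gene, gate and library. White lines part the S list (top), the G2/M list (middle) and Stmn1 (bottom). In NK cells most G2/M genes are dark in NT_day5, UT_day12, IL33_day12 and Orth_day26, and Hmgb2 is the brightest row in both gates.

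Pairs of libraries gave the sizes in NK cells, as log2 ratios after 10 CPM was added to each level. For Orth day 5 over UT day 5 the summed S list differed by 0.45 (0.35 to 0.55) and the summed G2/M list by 0.85 (0.77 to 0.93). Of 36 members with at least 50 UMIs, 10 were at least 2-fold higher (2.05% of 8259 genes) and 0 at least 2-fold lower (2.68%), with a median of 0.66 beside -0.16 over all genes. The highest G2/M ratios were Mki67 (2.26), Ube2c (1.79) and Top2a (1.40) and the lowest Cks2 (0.33), Hmgb2 (0.37) and Aurkb (0.43). In the S list 2810417H13Rik (1.13), Uhrf1 (0.71), a reader of DNA methylation, and Rrm2 (0.66), a subunit of ribonucleotide reductase, stood highest, and Tyms (-0.59), the thymidylate synthase, Mcm4 (-0.35) and Mcm7 (-0.10) lowest.
IL33 day 12 and IL2v day 12 shared a code. Here the S list was lower by 0.92 (interval -1.16 to -0.68) and the G2/M list by 1.09 (-1.26 to -0.92) in IL33. Of 31 members that passed the count limit 16 were at least 2-fold lower (2.32% of 6465 genes) and 0 at least 2-fold higher (2.61%), with a median of -1.07 beside -0.08 over all genes. Mki67 (-2.25), Birc5 (-2.21) and Ube2c (-2.10, 0 UMIs in IL33) were the lowest of the G2/M list and 2810417H13Rik (-2.77), Tyms (-1.64) and Rrm2 (-1.48) of the S list. Cks2 (-0.22), Cenpa (-0.28) and Hmgb2 (-0.54) were the highest of the first list and Pcna (0.29), Hells (-0.08) and Mcm2 (-0.15) of the second. The S ratio was 0.069 and the G2/M ratio -0.23 under the filter of the later experiment.

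Orth day 12 over IL33 day 12 gave 0.97 (0.73 to 1.21) for the S list and 0.95 (0.78 to 1.12) for the G2/M list, and 7 of 20 members were at least 2-fold higher (1.47% of 5451 genes). These ratios were 0.093 and 0.36 under the filter of the later experiment. The ratio of Ube2c was 2.38 with 0 UMIs in IL33, that of Birc5 2.08, of Top2a 1.95 and of 2810417H13Rik 2.56, and after it Mcm5 and Hist1h2ap (each 0.93) led the S list. Mcm4 (-0.01), Rrm1 (0.29) and Mcm2 (0.45) closed it, and Cenpa (0.23), Hmgb2 (0.37) and Cks2 (0.73) were the lowest of the G2/M list. Orth day 12 and IL2v day 12 were close, at 0.05 (-0.05 to 0.15) for S and -0.14 (-0.21 to -0.07) for G2/M, and 0 of 37 members passed 2-fold in either direction (1.58% of genes higher and 2.14% lower). Pcna (0.84), Mcm5 (0.60) and Gins2 (0.55) were the highest S genes of that pair and Rrm2 (-0.73), Tyms (-0.58) and Mcm4 (-0.54) the lowest. Cks2 (0.51), Cks1b (0.49) and Ube2c (0.28) were its highest G2/M genes and Ccna2 (-0.67), Ccnb2 (-0.55) and Cdk1 (-0.46) its lowest. From Orth day 5 to day 12 the G2/M list was 0.30 lower (-0.37 to -0.24) and the S list 0.19 lower (-0.28 to -0.10), with 0 of 37 members past 2-fold (0.295% higher and 0.369% lower). Mki67 (-0.80), Cenpa (-0.70), Tpx2 (-0.57), Rrm2 (-0.68), Mcm4 (-0.55) and 2810417H13Rik (-0.55) were the lowest there, and Cks2 (0.26), Birc5 (0.13), Cenpf (0.08), Pcna (0.45), Gins2 (0.36) and Tyms (0.23) the highest. From Orth day 12 to day 26 the S list was 0.84 lower (-1.12 to -0.56) and the G2/M list 1.11 lower (-1.33 to -0.89), and 9 of 20 members were at least 2-fold lower (3.35% of 5313 genes). Mki67, Birc5, Cks1b, Ube2c and 2810417H13Rik had 0 UMIs in the 74 NK cells of day 26, Pcna was at -1.31 and Mcm3 at -1.07. Mcm4 (0.06), Mcm6 (-0.06), Rrm1 (-0.19), Hmgb2 (-0.53), Cks2 (-0.75) and Cenpa (-0.77) were the highest. Under the filter of the later experiment the ratios were 0.0023 and -0.46. For Orth day 12 over UT day 12, which shared a code, the ratios were 0.53 (0.22 to 0.84) for S and 0.59 (0.36 to 0.81) for G2/M. There 7 of 20 members were at least 2-fold higher (3.6% of 5142 genes), Ube2c (2.38) from 0 UMIs and 2810417H13Rik (2.28) from 1 UMI in UT. UT day 5 and NT differed less, with 2 of 15 members at least 2-fold higher in UT (1.04%), 2810417H13Rik (1.84) and Top2a (1.42), both from 1 UMI in NT. These comparisons share libraries (Orth day 12 enters 5 of them), and a member passed the count limit mostly through the library in which it was high, so the counts describe those members and not the whole list.

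Low NK levels in 5 libraries were not levels of 0 for all members. Hmgb2, a chromatin protein that is also made in resting cells, held 46.2% to 50.2% of the UMIs of the G2/M list in the NK cells of Orth day 5, IL2v day 12 and Orth day 12 and 64.5% to 73.7% in the other 5. Without it the G2/M list summed to 727, 600 and 558 CPM in Orth day 5, IL2v day 12 and Orth day 12 and to 132 to 265 CPM in the other 5. The log2 ratios then were 1.42 for Orth day 5 over UT day 5, 1.84 for Orth day 12 over IL33 and -1.95 for IL33 over IL2v. Markers of other cells overlapped between these libraries: the 6 T markers summed to 896 to 1563 CPM in the 3 libraries and 963 to 1648 CPM in the other 5. The 8 myeloid markers summed to 46.5 to 107.5 CPM and 41.6 to 105.9 CPM. Of the T markers, Cd5 had 0 UMIs in the NK cells of NT, UT day 12 and Orth day 26.

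In CD8 T cells Mki67 was found in every library, and most often in Orth day 5. After thinning it was in 69 of 496 cells of Orth day 5 (13.9%, 11.0% to 17.3%), 53 of 722 of Orth day 12 (7.34%, 5.55% to 9.49%) and 80 of 2259 of Orth day 26 (3.54%, 2.82% to 4.39%), and these 3 intervals do not overlap. It was in 37 of 484 cells of UT day 5 (7.64%, 5.44% to 10.4%), 1 of 41 of UT day 12 (2.44%, 0.0617% to 12.9%) and 4 of 76 of NT (5.26%, 1.45% to 12.9%). IL2v day 12 (29 of 544, 5.33%, 3.60% to 7.57%) and IL33 day 12 (28 of 364, 7.69%, 5.17% to 10.9%) overlapped with Orth day 12. The shares without thinning were 13.2% in NT, 21.9% and 9.76% in UT days 5 and 12, 13.2% in IL2v, 14.3% in IL33, and 25.8%, 16.2% and 8.28% in Orth days 5, 12 and 26. The median depth of all CD8 T cells was 6052.5 UMIs, below the 8241 UMIs of the background cells. Orth day 5 stood above Orth day 12, and Orth day 12 above Orth day 26, under each of the 5 other ways of counting.

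The level of Mki67 gave the same order for these, at 142 CPM (131 to 154) in Orth day 5, 57.5 CPM (51.9 to 63.5) in Orth day 12 and 46.9 CPM (43.4 to 50.6) in Orth day 26. It was 93.1 CPM in UT day 5, 67.2 CPM in IL33, 62.5 CPM in IL2v, 42.7 CPM in NT and 14.6 CPM in UT day 12, the last from 4 UMIs. Top2a was found in 14.9%, 9.56% and 5.44% of CD8 T cells of Orth days 5, 12 and 26, 8.88% of UT day 5, 0% of UT day 12 (0 of 41, which allows up to 7.32%), 9.21% of NT, 6.43% of IL2v and 8.79% of IL33. Its level was 145 CPM in Orth day 5 and 143 CPM in UT day 5, so that no order between these 2 is read from its share, and 87.3, 68.0, 88.1, 81.0, 101 and 10.98 CPM in Orth day 12, Orth day 26, IL2v, IL33, NT and UT day 12.

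The 3 further genes followed in every library were highest in UT day 5 or NT. Stmn1 was at 365 CPM in UT day 5, 236, 205 and 157 CPM in Orth days 5, 12 and 26, 226 in IL33, 209 in NT, 200 in IL2v and 124 in UT day 12. 2810417H13Rik was at 296, 223, 129, 105, 123, 130, 114 and 21.95 CPM in the same order. Hist1h2ap was at 135 CPM in NT and at 10.98 to 72.1 CPM in the other 7.

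The sums over the lists put UT day 5 first, at variance with the share of cells. The S list summed to 1484 CPM in UT day 5, 1216 in Orth day 5, 907 in IL33, 862 in NT, 817 in Orth day 12, 799 in IL2v, 626 in Orth day 26 and 604 in UT day 12. The G2/M list summed to 2686, 2227, 1713, 1832, 1464, 1561, 1561 and 732 CPM in the same order. In the background cells the sums were 194 and 378 CPM. UT day 5 had the highest level of 29 of the 43 members (15.7% of 10601 genes were highest there) and Orth day 5 of 8 (15.8%). In UT day 5 the 37 cells with Mki67 had a median of 18184 UMIs against 7333 UMIs in the 447 others, while in Orth day 5 these medians were 9159 and 7266 UMIs, and a sum over cells gives large cells more weight.
The ratio of Orth day 5 to UT day 5 was -0.28 (-0.34 to -0.23) for S and -0.27 (-0.31 to -0.23) for G2/M with the sums. It was 0.0073 and 0.18 when each cell counted alike and 0.84 and 0.97 under the filter of the later experiment, so its direction is not settled. Ccnb2 (-1.11) was the 1 member of 43 at least 2-fold lower (1.41% of 8660 genes) and 0 were at least 2-fold higher (1.67%). Mki67 (0.56), Kif11 (0.30), a spindle motor, and Bub1b (0.20), a checkpoint kinase, had the highest G2/M ratios, and Hells (0.26), Uhrf1 (0.17) and Mcm5 (0.07) the highest S ratios. Tyms (-0.96), Tk1 (-0.85) and Rrm2 (-0.59), which make the building blocks of DNA, had the lowest S ratios, and Ccnb1 (-0.74) and Cenpa (-0.70) were the lowest G2/M genes after Ccnb2.

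**Figure D3:**
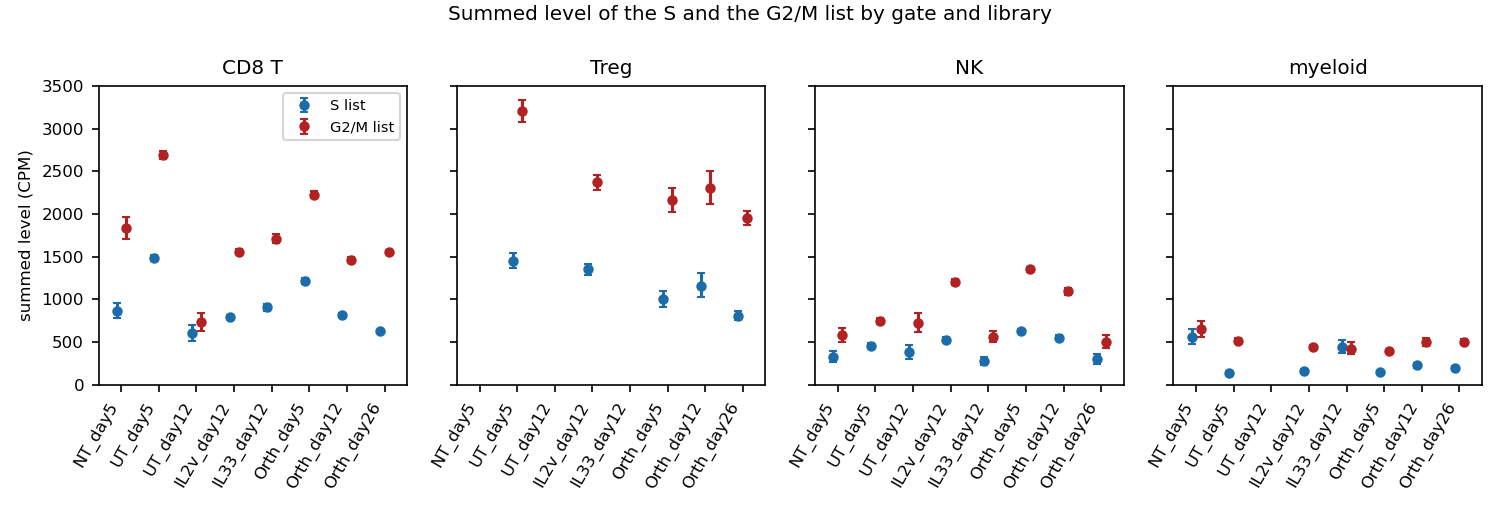
Summed level (y axis, CPM) of the S list (blue) and the G2/M list (red) by library (x axis) in 4 gates of at least 30 cells, with exact 95% Poisson intervals. CD8 T and Treg cells of UT_day5 are highest (2686 and 3203 CPM of G2/M genes), NK cells are highest in Orth_day5 (1353 CPM), and myeloid cells stay at 651 CPM or below.

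Within the Orth series most members were lower at day 12 than at day 5. The S list was lower by 0.57 (interval -0.62 to -0.51) and the G2/M list by 0.60 (-0.64 to -0.56), with the median of all genes at -0.13. Of 43 members 40 had a ratio below 0 (70.8% of 8845 genes) and 37 an interval below 0 (33.4%), though only Mki67 (-1.17) was at least 2-fold lower (0.294% of 8845 genes) and 0 were at least 2-fold higher (0.384%). After Mki67, Ube2c (-0.84) and Cenpa (-0.80) were the lowest of the G2/M list, and Rrm1 (-0.76), Hells (-0.75) and Uhrf1 (-0.74) of the S list. Gins2 (0.07), Tyms (0.02) and Pcna (-0.02) of the S list and Aurka (0.01), Ccnb1 (-0.09) and Bub1 (-0.22) of the G2/M list were the highest. With TMM factors the 2 sums differed by -0.40 and -0.44.
From day 12 to day 26 the direction of the G2/M list depended on the processing. The S list was lower by 0.38 (-0.43 to -0.33) and the G2/M list higher by 0.09 (0.06 to 0.13), beside a median of 0.12 over all genes, and 0 of 43 members passed 2-fold (1.53% of 9804 genes higher and 1.67% lower). Pcna, the sliding clamp of DNA polymerases, was lowest at -0.95 (124 to 59.3 CPM), followed in the S list by Uhrf1 (-0.58) and Hells (-0.55), while Tk1 (0.19), Mcm6 (0.00) and Mcm4 (-0.00) were its highest. Ube2c (0.59), the kinase Plk1 (0.46) and Ccnb2 (0.44) were the highest G2/M genes and Kif11 (-0.36), Cks1b (-0.34) and Top2a (-0.32) the lowest. The G2/M ratio turned to -0.45 under the filter of the later experiment, to -0.78 without the 6% of cells with the most UMIs, to -0.31 with each cell counted alike and to -0.025 with TMM factors. The S ratio was below 0 in each of these as well, so no opposite movement of the lists is read. The ratio of G2/M to S UMIs was 2.49 in Orth day 26 and 1.21 to 2.12 in the other 7 libraries.

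At day 12 the summed lists of the engineered groups lay within 0.23 of each other in CD8 T cells, but not under the filter of the later experiment. Orth over IL2v was 0.03 (-0.02 to 0.09) for S and -0.09 (-0.13 to -0.05) for G2/M, and 0 of 43 members passed 2-fold (1.19% of 8987 genes higher and 1.0% lower). Under the filter of the later experiment the ratios were 0.67 and 0.83. Pcna (0.69), Hist1h2ap (0.35) and Hells (0.34) were the highest S genes, and Mcm6 (-0.41), Rrm2 (-0.38) and Mcm4 (-0.29) the lowest. Among G2/M genes Cks1b, Cks2 and Kif11 were highest (each 0.18), and Cenpf (-0.62), Ccnb2 (-0.60) and Cdc20 (-0.46), the activator of the anaphase-promoting complex, lowest.
Orth over IL33 was -0.15 (-0.22 to -0.07) for S and -0.23 (-0.28 to -0.17) for G2/M, but the median of the 23 G2/M members counted was 0.03 and the sum without Hmgb2 0.049, with Hmgb2 alone at -0.48 (692 and 968 CPM). The signs also turned with the cells counted: the ratios were 0.24 and 0.22 without the 6% of cells with the most UMIs, 0.15 and -0.060 under the filter of the later experiment and 0.033 and -0.14 with each cell counted alike, so no direction is read. Of 40 members 0 passed 2-fold (1.21% of 8345 genes higher and 0.539% lower). Kif11 (0.49), Cenpe (0.33) and Ube2c (0.29) were its highest G2/M genes, Birc5 (-0.29) and Ccnb2 (-0.22) the lowest after Hmgb2, Gins2 (0.12), Tyms (0.07) and 2810417H13Rik (0.07) its highest S genes and Mcm6 (-0.41), Hist1h2ap (-0.32) and Rrm2 (-0.27) its lowest.
IL33 over IL2v, which shared a code, was 0.18 (0.10 to 0.26) for S and 0.13 (0.08 to 0.19) for G2/M, with a G2/M median of -0.31 and a sum without Hmgb2 of -0.27, which turns the sign. It was 0.52 and 0.89 under the filter of the later experiment, and 0.024 and -0.0071 without the 6% of cells with the most UMIs. Of 40 members 0 passed 2-fold (1.68% of 8074 genes higher and 1.52% lower). Pcna (0.77), Hist1h2ap (0.67) and Uhrf1 (0.48) led the S list and Tyms (-0.22), Rrm1 (-0.15) and Rrm2 (-0.11) closed it. Hmgb2 (0.55), Cks2 (0.15) and Cks1b (0.11) led the G2/M list, and Ube2c (-0.72), Cenpf (-0.57) and Plk1 (-0.55) closed it. Pcna was thus higher in the CD8 T cells of IL33 day 12 (132 CPM), Orth day 12 (124), Orth day 5 (126) and UT day 5 (124) than in those of IL2v day 12 (73.1), UT day 12 (73.2), NT (62.9) and Orth day 26 (59.3).

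**Figure D4:**
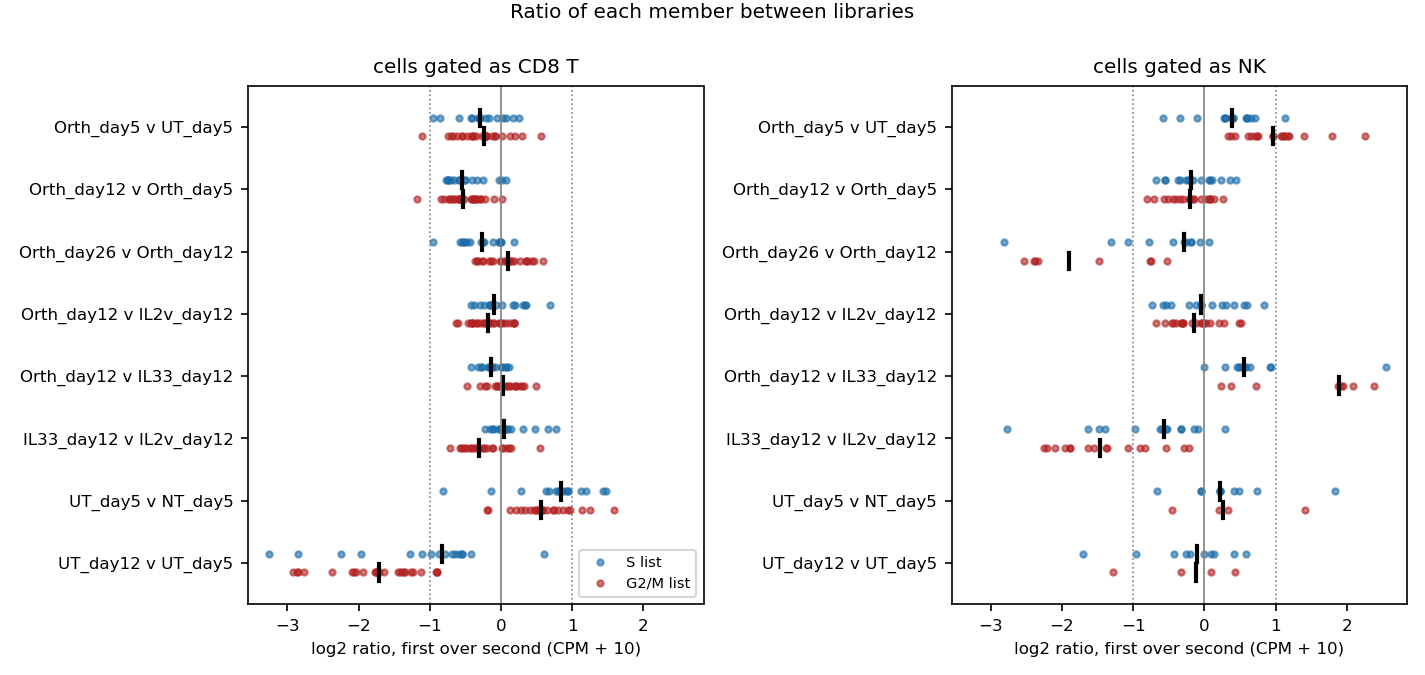
Log2 ratio of each member between 2 libraries (x axis, after adding 10 CPM) for 8 comparisons (y axis) in CD8 T cells (left) and NK cells (right). Each point is 1 member with at least 50 UMIs in the pair, blue for S and red for G2/M, black ticks are medians and dotted lines mark 2-fold. NK members lie right of 0 for Orth_day12 v IL33_day12 and left of 0 for IL33_day12 v IL2v_day12, with 1 member of 20 and 1 of 31 on the other side.

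The comparisons without engineered cells rest on few cells. UT day 5 over NT was 0.78 (0.63 to 0.92) for S and 0.55 (0.45 to 0.65) for G2/M, and 7 of 42 members were at least 2-fold higher (1.34% of 7436 genes) and 0 at least 2-fold lower (0.498%). These were Ube2c (1.58), Tk1 (1.47), Mcm2 (1.44), Ccnb1 (1.26), Hells (1.20), Cenpa (1.15) and 2810417H13Rik (1.13), whereas Hist1h2ap was lower by 0.82 on the log2 scale (72.1 and 135 CPM). Rrm2 (-0.14), Rrm1 (0.28), Cdc20 (-0.20), Cdca8 (-0.18) and Bub1b (0.13) were the other members with the lowest ratios. They were 0.27 and 0.048 under the filter of the later experiment.
UT day 12 was lower than UT day 5 by 1.28 for S (-1.50 to -1.06) and 1.86 for G2/M (-2.06 to -1.66), and 29 of 42 members were at least 2-fold lower (7.14% of 7325 genes) and 0 at least 2-fold higher (0.983%). In the 41 cells of UT day 12, 11 members had 0 UMIs: Aurka, Aurkb, Bub1, Bub1b, Ccna2, Cdc20, Cdca8, Kif11, Kif20a, Plk1 and Tpx2. The lowest ratios were those of 2810417H13Rik (-3.26), Ccna2 (-2.92), Top2a (-2.86), Ube2c (-2.85), Rrm2 (-2.85) and Tyms (-2.25). The subunits of the helicase differed less, with Mcm4 at -0.43 and Mcm3 at -0.54, and Gins2 was at 0.61. Ccnb2 (-0.91), Cks1b (-0.90) and Cks2 (-0.90) were the highest of the G2/M list. Under the filter of the later experiment the ratios were -0.18 and -0.050. Against Orth day 12, which had the same code, the CD8 T cells of UT day 12 were also lower: Orth over UT was 0.43 (0.21 to 0.65) for S and 0.99 (0.79 to 1.19) for G2/M, and 14 of 39 members were at least 2-fold higher in Orth (5.46% of 7746 genes) and 0 at least 2-fold lower (2.44%). Top2a (2.21), Ccna2 (1.98), Cdca8 (1.86), 2810417H13Rik (2.13), Rrm2 (1.67) and Hist1h2ap (1.40) stood highest there, and Ccnb2 (-0.72), Cenpa (-0.06), Cks1b (0.27), Gins2 (-0.83), Mcm4 (-0.50) and Mcm3 (-0.32) lowest.

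Most members were higher in cells with Mki67. Of the 4986 CD8 T cells, 301 held Mki67 after thinning, with a median of 11 members detected, against 1 in the 4685 others. Mki67 is itself among the members counted here, so the split fixes that part of the difference. In the cells with Mki67, 40 of the 42 other members were at least 2-fold higher (2.75% of 10600 genes). The medians were 1.62 for the S list and 2.38 for the G2/M list. Hist1h2ap (3.29), Ccna2 (3.24), Ube2c (3.20), Birc5 (3.18), 2810417H13Rik (3.08) and Top2a (3.0) were highest. Mcm6 (0.95) and Mcm2 (0.96) were lowest.
Cells with Mki67 held 9.46% of the UMIs of CD8 T cells. They held 59.8% of the UMIs of Ccna2, 53.6% of Ube2c, 49.4% of Top2a and 44.7% of Stmn1, but 33.5% of Hmgb2, 24.2% of Pcna and 17.6% of Mcm6. Most UMIs of Hmgb2, Pcna and Mcm6, and by less also of Top2a and Stmn1, thus lay in cells without a Mki67 UMI after thinning. These cells include some that held Mki67 before thinning, when 676 CD8 T cells held it. Cells with Mki67 were also deeper, with a median of 10023 UMIs against 5923 UMIs, and its part in the ratios was not tested. The 87 NK cells with Mki67 gave the same kind of picture against the 2325 without: 41 of the 41 other members with at least 50 UMIs were at least 2-fold higher (2.98% of 9358 genes), at depths of 9555 and 5134 UMIs, with medians of 1.93 for S and 3.09 for G2/M, the lowest being Mcm4 (1.04) and the highest Birc5 (4.26) and 2810417H13Rik (4.25).

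**Figure D5:**
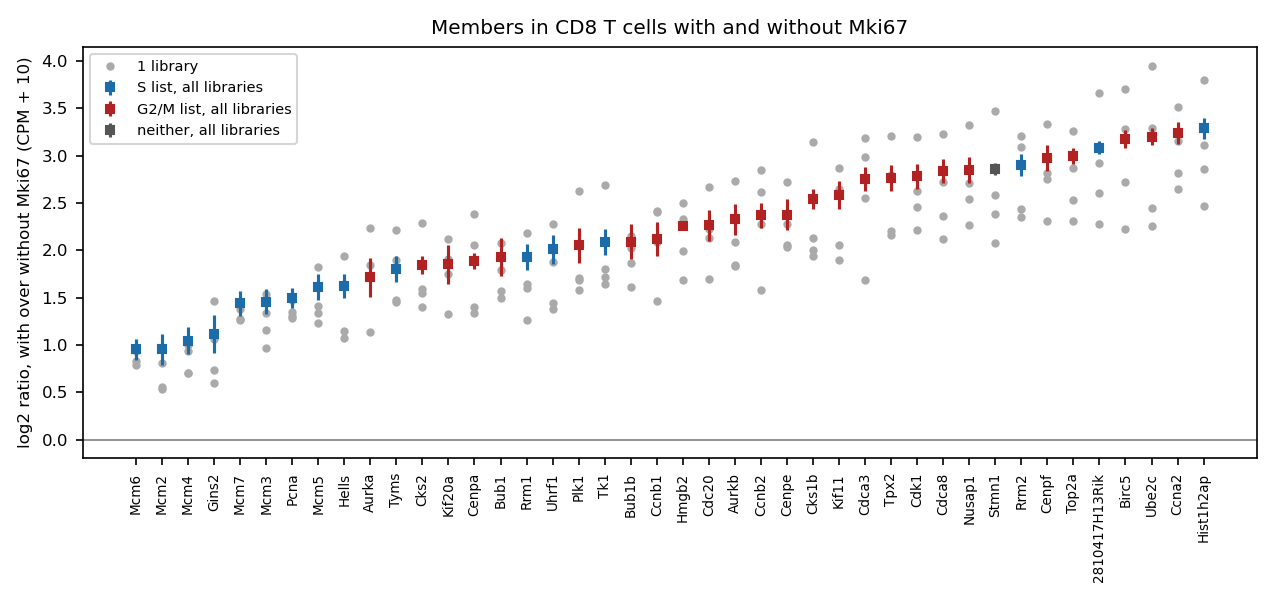
Log2 ratio of the level in CD8 T cells with Mki67 over the level in those without (y axis, after adding 10 CPM) for the 42 other members (x axis, sorted). Squares pool all libraries (301 and 4685 cells) with 95% counting intervals, blue for S, red for G2/M and dark grey for Stmn1, and light grey points are the 4 libraries with at least 30 cells on both sides. Mcm genes are at the low end and Hist1h2ap, Ccna2, Ube2c and Birc5 at the high end.

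S and G2/M messages were also counted in the same cells, as cells with at least 3 UMIs of a list after thinning. Cells with both were 19.0% (15.6% to 22.7%) of CD8 T cells in Orth day 5, 14.3% (11.3% to 17.7%) in UT day 5, 9.34% in IL33, 8.86% in Orth day 12, 7.35% in IL2v, 5.26% in NT, 3.72% (2.98% to 4.58%) in Orth day 26 and 2.44% in UT day 12. Cells with the S list alone were 1.32% to 9.76%, and those with the G2/M list alone 8.82% to 19.0%. Of the background cells 6.31% held the G2/M list alone and 0.901% both. Hmgb2, also made in resting cells, gave 39.1% (UT day 5) to 56.5% (IL33) of the G2/M UMIs of CD8 T cells. IL33 was also the library with 19.0%, so no phase is read from these shares. Of all CD8 T cells 34.2% had 2 or 3 UMIs of a list and lie near the limit. In NK cells the share with both was 5.86% in Orth day 5, 3.23% in IL2v, 2.75% in Orth day 12, 2.52% in UT day 5, 1.96% in UT day 12, 1.41% in NT and 0% in IL33 and Orth day 26 (up to 2.50% and 4.05% allowed).

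Mki67 was found in 55 of 597 Treg cells. In the 5 libraries with at least 30 Treg cells the share was 13.8% in Orth day 5, 9.09% in Orth day 12, 8.43% in IL2v, 8.28% in Orth day 26 and 7.48% in UT day 5, with overlapping intervals. Beside the CD8 T cells of the same library the Treg share differed by less than its interval in UT day 5 (7.48% and 7.64%) and Orth day 5 (13.8% and 13.9%), and the intervals were apart in Orth day 26 (4.60% to 13.5% in Treg cells and 2.82% to 4.39% in CD8 T cells). Without thinning these were 29.3%, 15.2%, 16.3%, 16.0% and 14.95%. The level of Mki67 was 178, 175, 103, 75.9 and 99.0 CPM and that of Top2a 122, 196, 138, 91.9 and 123 CPM. Top2a was found in 12.1%, 12.1%, 12.7%, 8.28% and 9.35% of the cells. Smaller numbers of Treg cells with Mki67 were seen in NT (1 of 16), UT day 12 (4 of 23) and IL33 (3 of 25). Of 31 members, 7 were at least 2-fold lower in Orth day 5 than in UT day 5 (5.38% of 3326 genes lower, 4.69% higher), among them Nusap1 (-1.69), Cdk1 (-1.49) and Hist1h2ap (-1.50), while Mki67 itself was higher (178 and 99.0 CPM). From Orth day 12 to day 26, 5 of 24 members were at least 2-fold lower in Treg cells (2.99% of 3576 genes): Pcna (-1.20), Rrm1 (-1.12), Mki67 (-1.10), Stmn1 (-1.02) and Top2a (-1.01). The day 12 side is only 33 Treg cells, of which 3 held Mki67 and 4 held Top2a after thinning (5 and 8 without it). The markers of this gate moved as well, type 2 genes from 3261 to 1072 CPM, T cell genes from 2524 to 3760 CPM and B cell genes from 8.51 to 108.7 CPM, and their part was not tested.

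CD4 T cells (other than Treg) were few, 42 to 282 in the 6 libraries with at least 30. Mki67 was in 2.08% of them in UT day 5, 4.76% in IL2v, 6.98% in IL33, and 3.33%, 6.78% and 2.48% in Orth days 5, 12 and 26, with overlapping intervals, and without thinning in 5.21%, 4.76%, 14.0%, 8.33%, 11.9% and 5.32%. Top2a was in 10.4%, 14.3%, 16.3%, 1.67%, 10.2% and 4.61% of the same. At Orth day 26 the level of Mki67 was 20.6 CPM against 98.1 CPM at Orth day 12, and 6 of the 8 members with enough UMIs were at least 2-fold lower (3.14% of 3859 genes): Stmn1 (-2.38), Pcna (-1.89), Mki67 (-1.82), Cks2 (-1.79), Top2a (-1.18) and Hmgb2 (-1.06). In the same gate type 2 genes went from 1902 to 200.4 CPM, NK genes from 1598 to 837 CPM and T cell genes from 2706 to 4239 CPM, and their part was not tested.
Type 2 cells held Mki67 in 6.25% (IL33), 4.81% (Orth day 5), 3.57% (Orth day 12) and 4.69% (Orth day 26) of cells, with levels of 46.9, 53.6, 45.7 and 18.4 CPM, and Top2a in 3.12%, 10.6%, 9.52% and 9.38%, with levels of 17.6, 94.1, 96.2 and 39.96 CPM. These come from 2, 5, 3 and 3 cells with Mki67, and no order is read from them. Without thinning Mki67 was in 9.38%, 12.5%, 16.7% and 9.38% of the cells.
Few myeloid cells held Mki67, as in the background cells (1.80% after thinning). It was in 0% to 2.08% of them per library and 1.19% (0.692% to 1.89%) in all, at 3.39 to 26.7 CPM, and Top2a in 0.767% in all, at 5.06 to 20.5 CPM. Without thinning Mki67 was in 4.74%, against 6.31% of the background cells. Their G2/M list summed to 392 to 651 CPM, with intervals above that of the background cells (340 to 418 CPM) in NT, UT day 5, IL2v, Orth day 12 and Orth day 26. Their S list summed to 140 to 562 CPM, with intervals above the background's (168 to 224 CPM) in NT (562 CPM, 32 cells) and IL33 (445.0 CPM, 48 cells). After thinning, 1 NT cell held at least 3 UMIs of the S list alone and 2 held as many of both lists. In IL33 these were 2 and 1 cells. The intervals do not cover which cells were sampled, so no difference from the background is read.

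CD8 T cells with Mki67 were also set beside 10 genes that mark T cell states, after thinning and per library. The effector protease Gzmb was the one gene whose cells held Mki67 more often, with the interval of the difference above 0, in more than 1 library. In Orth day 5, 16.6% of the 326 cells with Gzmb and 8.82% of the 170 without it held Mki67 (difference interval 1.17 to 13.6 percentage points), in IL33 10.5% and 4.62% (0.0153 to 11.7), and in Orth day 26 5.15% and 2.96% (0.319 to 4.41). In Orth day 12 the shares were 7.94% and 6.58% (-2.75 to 5.30) and in UT day 5 7.52% and 7.69%. In Orth day 26 the checkpoint receptor Pdcd1 also parted the cells, with 5.99% and 2.36% (1.79 to 5.71), and so did Lag3 (6.62% and 3.09%), Tox (5.49% and 3.10%) and Klrg1 (7.81% and 3.28%). Cells with Pdcd1 also held Mki67 more often in UT day 5 (9.38% and 5.70%), IL33 (11.9% and 6.08%), Orth day 12 (8.89% and 6.83%) and IL2v (6.09% and 5.13%), each with an interval that held 0. In NT they held it less often (4.44% and 6.45%), also with an interval that held 0. The direction was not the same in all libraries: in Orth day 5 the shares were 11.9% and 14.6% for Pdcd1, 11.2% and 14.6% for Lag3 and 9.09% and 14.4% for Tox, and in Orth day 12 4.65% and 7.51% for Tox and 2.22% and 7.68% for Klrg1, each with an interval that held 0. Cells with Tcf7, a factor of memory-like T cells, held Mki67 less often in Orth day 26 (1.83% and 4.02%, -3.61 to -0.356), as did cells with Il7r in UT day 5 (3.14% and 9.85%). For Gzmk the interval held 0 in each of 6 libraries. These 51 splits were not adjusted for their number, and whether a difference differs between libraries was not tested.

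Further cell cycle genes outside the 43 were counted by list. In CD8 T cells 0 of the S and 0 of the G2/M genes outside the members passed 2-fold in the 3 comparisons within and around Orth that follow: Orth day 5 over UT day 5 (29 and 28 genes counted, medians -0.11 and -0.04), Orth day 12 over day 5 (29 and 27, -0.34 and -0.38) and Orth day 26 over day 12 (29 and 29, -0.17 and 0.05). Over all genes 0.294% to 1.67% passed 2-fold in a given direction in these 3 comparisons, so a count of 0 among so few genes is near that share. For UT day 12 over UT day 5, 6 of 27 S and 10 of 23 G2/M genes outside the members were at least 2-fold lower, against 7.14% of 7325 genes. Myc, a transcription factor that drives growth and entry into the cycle, was at 12.6 CPM in the CD8 T cells of Orth day 12, 36.6 in IL33 and 125 in IL2v, with log2 ratios of -1.04 and -2.58 for Orth over each. Klf2, which keeps T cells at rest, was at 66.0, 142 and 364 CPM in the same libraries. The inhibitor Cdkn1a was at 102 CPM in Orth day 12, 40.4 in IL2v and 32.5 in IL33 (1.15 and 1.40), and the G1 kinase Cdk6 at 181 and 63.6 CPM in Orth day 12 and IL2v (1.38). From Orth day 12 to day 26 Cdkn1a (-1.75), Cdk6 (-1.31) and Cdkn2a (-1.28) were lower and Klf2 (2.11), Myc (1.62) and Btg1 (1.53) higher. In NK cells Myc and Klf2 showed the same low level in Orth day 12 (15.2 and 62.6 CPM), against 146 and 254 CPM in IL2v and 93.8 and 404 CPM in Orth day 26, and Cdk6 was at 92.6 CPM in Orth day 5 and 36.2 CPM in UT day 5 (1.15).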

How the data were processed

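The 8 libraries of CD45+ tumor cells were read with a 5' single-cell kit. The authors deposited UMI counts per gene and barcode as 1 matrix, in which Cell Ranger had joined the 8 libraries. Whether the joining thinned reads to equal depth is not given in the sources used here. The submitters' processing notes name Cell Ranger 2.2.0, where the study's methods give another version, and the build GRCm38. The counts are not divided by gene length, so levels are not compared between genes.

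Cells were kept with 500 to 6000 genes, 2000 to 40000 UMIs, 5% to 60% ribosomal UMIs (85 genes) and under 10% mitochondrial UMIs (13 genes), after the study's limits. Cells were not clustered and no doublet caller was run; leaving out the 6% of cells with the most UMIs was an alternative. Gates used raw UMIs of marker genes, in a fixed order. CPM are UMIs of a gene summed over a gate and library, per 1e6 UMIs of that gate. Log2 ratios added 10 CPM and were given for genes with at least 50 UMIs in the pair and gates of at least 30 cells. Shares count cells with 1 UMI or more after each cell was thinned at random to 2000 UMIs. Intervals are 95%, Clopper-Pearson for shares and Poisson for levels, and the limit for a count of 0 is 3 counts. For a difference between shares, the distances to the Clopper-Pearson bounds of both were combined as the root of their summed squares, which is approximate. Intervals and limits cover counting error only. With 1 library per condition and day no test was run.

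Members and gene lists were chosen with earlier results of these data known. Mki67 and Top2a were named in every gate, Stmn1, Hist1h2ap and 2810417H13Rik in CD8 T and NK cells, and by rule the 3 highest and 3 lowest ratios of the S and of the G2/M list in each comparison. These are not all printed for NK cells of Orth over UT day 12, UT day 5 over NT and UT day 12 over day 5, nor for gates other than CD8 T and NK. Other genes were chosen after their values were seen. The values of 1 of the T cell state genes are not reported here. Alternatives were another cell filter, a stricter gate, another thinning depth, pseudocount, count limit and scaling (TMM, edgeR 4.0.16 in R 4.3.3), and each cell counted alike. The ratio and its interval were tried on simulated Poisson counts, the form of error that the interval assumes. This checks the calculation only. It cannot show whether the interval is wide enough where the UMIs of a gene lie in few cells. Python 3.11.15, numpy 2.4.6, scipy 1.17.1, pandas 2.3.3 and matplotlib 3.10.9 were used. Promoters come from RefSeq.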

Additional observations from a re-analysis of the deposited data

Results flagged for a closer look

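The difference between the summed G2/M lists of 2 libraries had opposite signs in some pairs of gates, and each such difference rests on 1 library per condition and was not tested. The values are log2 ratios of summed levels and the gap between the gates. For Orth day 5 over UT day 5 the NK ratio was 0.85, against -0.27 in CD8 T cells (gap 1.12), -0.56 in Treg cells (gap 1.41) and -0.38 in myeloid cells (gap 1.23). For Orth day 12 over day 5 the CD4 T ratio was 0.76 and the myeloid ratio 0.34, against -0.60 in CD8 T cells (gaps 1.36 and 0.937) and -0.30 in NK cells (gaps 1.06 and 0.639). For Orth day 12 over IL33 day 12 the NK ratio was 0.95 and the type 2 ratio -0.61 (gap 1.56). The type 2 ratio comes from 84 cells of Orth and 32 of IL33, and the members did not move together. Cenpa (-2.45) and Hmgb2 (-0.53) were lower in Orth and Top2a was higher (1.94, from 3 UMIs in IL33). Mki67, with 29 UMIs in Orth and 8 in IL33, was below the count limit, and its interval (-0.96 to 0.90) gives no direction. The S list was also higher in Orth (632 and 276 CPM), so no direction of cycling is read in type 2 cells. For UT day 5 over NT the myeloid ratio was -0.33, against 0.55 in CD8 T cells (gap 0.880) and 0.36 in NK cells (gap 0.690). The sign of the CD8 T ratio of Orth day 5 over UT day 5 depends on the cell filter.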

How the results depend on the processing

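No paired analysis was possible because each condition and day has 1 library. Of 230 alternative values of the shares and summed ratios, 115 stayed within the counting interval, 91 left it and 24 changed sign. Where they changed, the cause was not tested. Of the 115, 24 came from a pseudocount of 1 CPM, which can hardly move sums of this size. Leaving out thinning cannot lower a share, and thinning further lowers it on average. Of the 24 that changed sign, 2 compare another pair of libraries, Orth day 12 and UT day 12. These counts are therefore no measure of stability. Ratios are log2, S before G2/M.

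Without thinning the Mki67 share of CD8 T cells was 13.2% in NT, 21.9% in UT day 5, 13.2% in IL2v, 14.3% in IL33 and 25.8%, 16.2% and 8.28% in Orth days 5, 12 and 26, and that of NK cells was 2.06% in UT day 5, 8.84% in IL2v and 11.8% in Orth day 5. With thinning to 1000 UMIs it was 3.49% in IL2v, 4.40% in IL33 and 9.48%, 3.74% and 1.86% in Orth days 5, 12 and 26 for CD8 T cells, and 0% in UT day 5, 1.72% in IL2v, 4.31% in Orth day 5 and 1.72% in Orth day 12 for NK cells.

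Under the filter of the later experiment the CD8 T shares were 3.96% in UT day 5, 2.81% in IL2v, 4.81% in IL33 and 9.52%, 4.49% and 2.28% in Orth days 5, 12 and 26, and the NK shares 1.71% in IL2v, 4.24% in Orth day 5 and 0.476% in Orth day 12. The CD8 T ratios were 0.84 and 0.97 for Orth day 5 over UT day 5, -0.45 and -0.53 for Orth day 12 over day 5, -0.59 and -0.45 for Orth day 26 over day 12, 0.67 and 0.83 for Orth over IL2v, 0.15 and -0.060 for Orth over IL33, 0.52 and 0.89 for IL33 over IL2v, 0.27 and 0.048 for UT day 5 over NT and -0.18 and -0.050 for UT day 12 over day 5. The NK ratios were 0.68 (G2/M) for Orth day 5 over UT day 5, 0.093 and 0.36 for Orth over IL33, 0.069 and -0.23 for IL33 over IL2v and 0.0023 and -0.46 for Orth day 26 over day 12.

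Without the 6% of cells with the most UMIs the share was 2.54% in CD8 T cells of Orth day 26 and 4.48% in NK cells of Orth day 5. The CD8 T ratios were 0.0069 and 0.033 for Orth day 5 over UT day 5, -1.0 and -0.78 for Orth day 26 over day 12, 0.27 and 0.21 for Orth over IL2v, 0.24 and 0.22 for Orth over IL33, 0.024 and -0.0071 for IL33 over IL2v, 1.02 (G2/M) for UT day 5 over NT and -1.82 and -1.62 for UT day 12 over day 5, and the NK ratios 0.58 and 0.76 for Orth day 5 over UT day 5 and -0.64 and -0.44 for IL33 over IL2v.

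With each cell counted alike the CD8 T ratios were 0.0073 and 0.18 for Orth day 5 over UT day 5, -0.60 and -0.31 for Orth day 26 over day 12, 0.13 and 0.085 for Orth over IL2v, 0.033 and -0.14 for Orth over IL33, 0.094 and 0.23 for IL33 over IL2v, 0.61 and 0.29 for UT day 5 over NT and -1.45 (G2/M) for UT day 12 over day 5. The NK ratios were 0.63 (G2/M) for Orth day 5 over UT day 5, 0.66 and 0.64 for Orth over IL33, -0.50 and -0.67 for IL33 over IL2v and -0.48 and -0.76 for Orth day 26 over day 12.

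With TMM factors the CD8 T ratios were -0.18 and -0.17 for Orth day 5 over UT day 5, -0.40 and -0.44 for Orth day 12 over day 5, -0.49 and -0.025 for Orth day 26 over day 12, 0.12 and -0.0032 for Orth over IL2v and -0.039 and -0.12 for Orth over IL33. TMM moved the median of all genes by 0.114 for Orth day 12 over day 5 and by 0.127 for UT day 12 over day 5. A stricter gate gave -0.34 (S) for Orth day 5 over UT day 5 and -0.15 (G2/M) for Orth over IL2v. Day 12 in place of day 5 gave 0.43 and 0.99 for Orth over UT.

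Without Hmgb2, an alternative chosen after seeing the data like those in NK cells, the G2/M ratios in CD8 T cells were -0.31 for Orth day 5 over UT day 5, -0.76 for Orth day 12 over day 5, -0.22 for Orth over IL2v, 0.049 for Orth over IL33, -0.27 for IL33 over IL2v, 0.81 for UT day 5 over NT and -2.25 for UT day 12 over day 5, and in NK cells 1.42 for Orth day 5 over UT day 5, 1.84 for Orth over IL33, -1.95 for IL33 over IL2v and -2.0 for Orth day 26 over day 12.

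The number of cells limits the small gates: 41 CD8 T cells of UT day 12 and 51 to 120 NK cells of NT, UT day 12, IL33 and Orth day 26 allow shares of a few percent to go unseen.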
